A study of Tupaia belangeri with 6 samples.

Results

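The cadherin and protocadherin genes of the tree shrew (*Tupaia belangeri*) were described in RNA from the prefrontal cortex (PFC), the frontal association area of the neocortex. The genes were chosen by name, with earlier results of these data known. Loci called CDH with a number, or PCDH with a number or cluster letter, were taken, and loci marked as gene-like copies were not. This gave 36 of the 95863 loci in the abundance tables. A further 8 gene-like copies were not included, and 2 loci that fit the pattern were left out by name. The genes fell into 12 classical cadherins, 3 other CDH genes, 10 non-clustered protocadherins and 11 clustered protocadherins. RefSeq annotation of the Chinese tree shrew names 25 of the 36. A further 11 genes that it names by the same pattern, CDH4, CDH10, CDH11 and PCDH7 among them, had no locus of exactly that name here.

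RNA was sequenced from 3 female animals (numbered 1, 3 and 4) and 3 male animals (numbered 1, 4 and 5), all described as adult, with no treatment named and no pooling. The sample table of the study gives each male a greater age than any female, and sex and age therefore cannot be told apart. Levels are given as TPM, a transcript abundance scaled for transcript length and for the library total. The tables hold no read counts and TPM keeps no depth, so the number of reads behind each value is unknown. The mean coverage of a locus is listed, but without exon lengths it gives no reads, and no interval for counting error was computed.

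Cadherins are cell surface proteins whose extracellular repeats bind calcium and hold neighbouring cells together. Classical cadherins join the actin skeleton through catenins and are known for their part in synapse formation and in sorting neurons into layers and circuits, while protocadherins lack the catenin-binding tail. The clustered protocadherins sit side by side in the genome, and each neuron uses its own choice of their promoters, which gives it a surface identity by which its branches recognise and avoid each other.

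The summed TPM of all loci ranged from 950532 to 971492 per library. Loci to which no strand had been assigned took 5.16% of the TPM in male 1 and 7.88% in male 5, against 2.30% to 3.33% in the other animals. These libraries stood apart, so the counts and differences of the sex comparison were also computed without males 1 and 5. No source used here states that the libraries kept the strand of the RNA. Unspliced reads of loci that overlap on opposite strands may therefore be assigned to either, and 31 of the 36 genes were overlapped by at least 1 locus on the other strand. In 6 of the 36 genes the summed mean TPM of these loci exceeded that of the gene.

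All classes were expressed in every animal. The 36 genes together summed to 1259 ± 165 TPM (SD, n = 6), or 0.131% of the library. Of these genes, 16 had a mean of at least 10 TPM, 15 a mean of 1 to 10 TPM and 5 a mean below 1 TPM. In 31 genes the level was above 0 in all 6 animals. PCDHA4, PCDHGB1 and PCDHB1 were above 0 in some animals only, and CDH16, known from kidney epithelium, and CDH26, known from other epithelia, were listed at 0 in all of them.

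Each of the 4 classes took between 20.1% and 31.4% of the summed TPM. CDH13 alone made up the level of the other CDH genes, at 31.4% of the total, whereas classical cadherins made up 20.1%, non-clustered protocadherins 24.1% and clustered protocadherins 24.4%. The classical cadherins summed to 245, 272 and 215 TPM in females 1, 3 and 4 and to 223, 255 and 305 TPM in males 1, 4 and 5. The sums of the non-clustered protocadherins were 277, 361 and 242 TPM in the females against 227, 325 and 384 TPM in the males. Those of the clustered protocadherins were 367, 409 and 213 TPM in the females against 179, 324 and 355 TPM in the males. In each class the ranges of the sexes overlapped, and among the classes the clustered protocadherins varied most, with male 1 and female 4 lowest. Their highest sum was 2.29 times their lowest, against 1.69 times for the non-clustered protocadherins and 1.42 times for the classical cadherins.

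**Figure D1:**
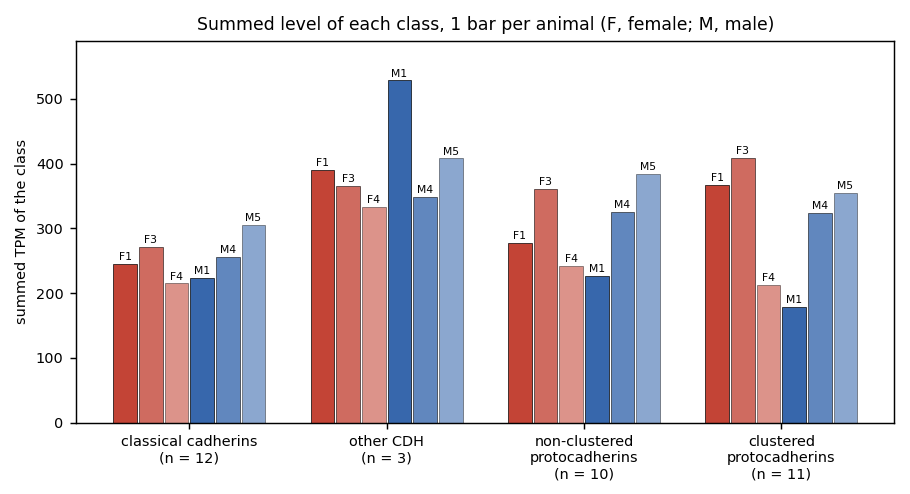
Summed TPM of each class (vertical axis, starting at 0) with 1 bar per animal (F, female in red; M, male in blue) and the number of genes of each class under its name. The clustered protocadherins sit between 179 TPM in male 1 and 409 TPM in female 3, and the classical cadherins between 215 and 305 TPM.

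The order of the genes depended on which deposited measure was read. Beside TPM, the tables give the mean coverage of each locus, which was put on the TPM scale so that a locus without strand, and so without splicing, has the same value on both. By this measure 18 genes had a TPM under 1.5 times the value that their coverage gave. In 9 of the 33 genes tested the TPM was at least 5 times that value, a share of 27.3% against 11.5% of the 30270 loci that passed the same filter on low values. These 9 were CDH9, CDH13, CDH18, CDH20, CDH22, PCDH11X, PCDH15, PCDHA1 and PCDHB14, with ratios from 7.36 in PCDH11X to 43.9 in PCDH15. By TPM the leading genes were CDH13, PCDHB14, PCDH8, PCDHA1 and PCDH1, and by coverage they were PCDH8, PCDH1, CDH13, CDH2 and PCDH10. The non-clustered protocadherins made up 56.2% of the summed coverage and the clustered ones 5.58%. The cause of the gap between the measures was not tested, and the order of these 9 genes among the others is uncertain.

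**Figure D2:**
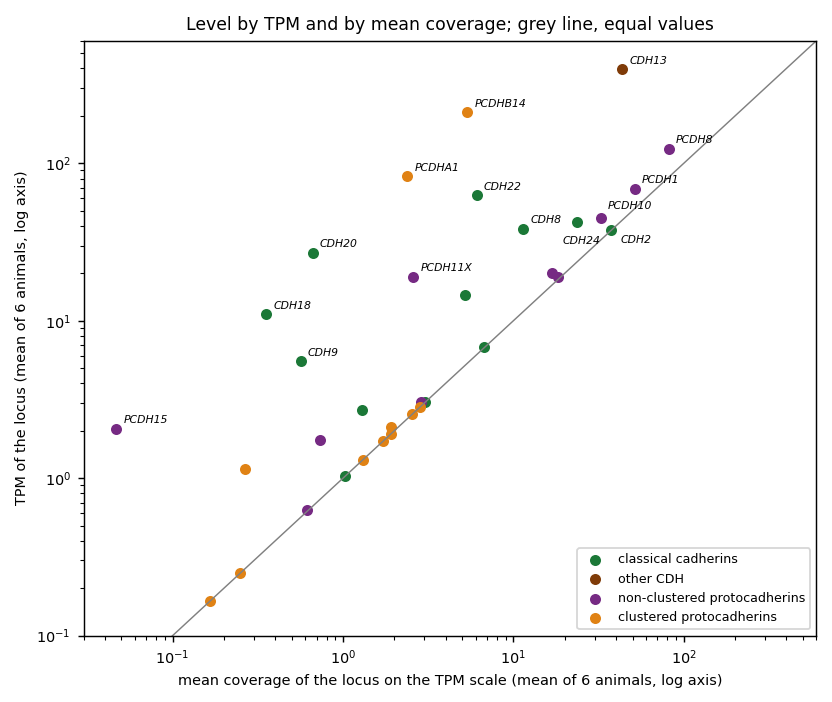
Mean TPM of each gene (vertical log axis) against its mean coverage on the TPM scale (horizontal log axis), each a mean of 6 animals with 1 point per gene, coloured by class. Genes on the grey line have equal values, such as CDH2 at 37.6 on both, whereas PCDHB14 has 211 TPM and a coverage value of 5.34.

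Among the classical cadherins, the type II genes outweighed the type I genes, at 198 ± 27.4 TPM (SD, n = 6) against 54.9 ± 7.12 TPM (SD, n = 6), and the ranges did not overlap (165 to 243 and 45.3 to 64.0 TPM). By coverage the ranges of both groups overlapped, at 46.3 to 65.2 for type II and 36.3 to 54.6 for type I. The type I gene CDH2 encodes N-cadherin, the main cadherin of neural tissue, and lies on chromosome 12 (48012878 to 48262344, plus strand, build TS_3.0). CDH2 stood at 39.6, 49.2 and 30.5 TPM in females 1, 3 and 4 and at 31.3, 29.8 and 45.3 TPM in males 1, 4 and 5. Female 3 and male 5 were highest, and the sexes overlapped. The other type I genes were CDH15, the cadherin of skeletal muscle precursors, at 14.5 ± 3.63 TPM (SD, n = 6), and CDH3, or P-cadherin, at 2.71 ± 1.01 TPM (SD, n = 6).

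CDH22 was the type II cadherin with the highest mean TPM, but by coverage, at 6.09 on the TPM scale, it lay below CDH24 at 23.7, CDH8 at 11.4 and CDH6 at 6.73. CDH22 (chromosome 9, 61981223 to 62115673, plus strand) stood at 58.0, 64.7 and 55.6 TPM in the females and at 49.1, 70.7 and 77.6 TPM in the males. CDH24 (chromosome 4, 110621184 to 110692881, minus strand) stood at 39.6, 39.0 and 43.2 TPM in the females and at 34.9, 49.8 and 46.6 TPM in the males. For both genes male 1 was lowest and male 4 or male 5 highest, so the females lay inside the range of the males. The coefficient of variation of CDH24 over the animals was 12.9%.

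CDH8, a type II cadherin known from subsets of cortical and striatal projection neurons and their synapses, was the only 1 of the 33 genes tested whose sexes did not overlap in TPM. CDH8 (chromosome 21, 2597181 to 3027720, minus strand) stood at 32.5, 32.5 and 19.8 TPM in the females and at 38.3, 42.1 and 65.2 TPM in the males. Male 1, the lowest male, thus lay above females 1 and 3, female 4 was far below them, and male 5 was far above the other males.

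CDH20 and CDH9, further type II genes, had higher means in females, but their sexes overlapped. CDH20 (chromosome 12, 614619 to 846878, plus strand) stood at 29.9, 35.8 and 24.9 TPM in the females and at 24.8, 20.1 and 26.6 TPM in the males, so that only male 5 overlapped the females. CDH9, known for its role at mossy fibre synapses of the hippocampus, stood at 7.01, 6.77 and 5.61 TPM in the females and at 6.39, 4.64 and 2.84 TPM in the males. Only male 1 reached the range of the females. By coverage both genes were weak, at 0.663 and 0.563 on the TPM scale. CDH6, CDH7 and CDH18 had means between 3.04 TPM in CDH7 and 11.0 TPM in CDH18, and none of them separated the sexes.

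CDH19, a gene of the Schwann cell and oligodendrocyte lineages, was the weakest classical cadherin by TPM. By coverage, at 1.03 on the TPM scale, it lay above CDH20, CDH9 and CDH18. CDH19 stood at 1.75, 1.72 and 0.827 TPM in the females and at 1.46, 0.125 and 0.289 TPM in the males. Males 4 and 5 were lowest. The summed TPM of 3 oligodendrocyte markers was 482, 348 and 399 in females against 236, 125 and 80.7 in males. This sum and CDH19 were both lowest in males 4 and 5. Of the 3 markers, MAG stood at 346, 247 and 323 TPM in the females against 146, 89.3 and 63.4 TPM in the males. MOG stood at 126, 87.3 and 63.0 TPM in the females against 76.4, 26.4 and 10.2 TPM in the males, so that male 1 lay among the females, as it did for CDH19. MBP stood at 9.79, 13.7 and 13.1 TPM in the females against 13.6, 9.77 and 7.07 TPM in the males, with female 1 near male 4. The part of oligodendrocyte content in the level of CDH19 was not tested. In bulk tissue, fewer cells of a type and less RNA per cell cannot be told apart.

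CDH13 encodes T-cadherin, which is held to the membrane by a lipid anchor and has no cytoplasmic tail. It had the highest TPM of all 36 genes, and its locus on chromosome 21 (21674613 to 22771123, plus strand) spans 1097 kb. CDH13 stood at 391, 365 and 334 TPM in the females and at 529, 348 and 408 TPM in the males. Male 1 was highest for CDH13, although it was lowest for more of the other genes than any animal. By coverage CDH13 ranked 3 of 36, at 43.3 ± 7.30 (SD, n = 6), again with male 1 highest at 57.0.

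The 10 non-clustered protocadherins analysed were led by PCDH8, also known as arcadlin. Neuronal activity induces it, and it takes part in the uptake of N-cadherin from the synaptic membrane. PCDH8 (chromosome 8, 448258 to 476859, plus strand) stood at 95.4, 144 and 92.3 TPM in the females and at 81.7, 145 and 184 TPM in the males. Male 5 was highest and male 1 lowest, so the males enclosed the range of the females. By coverage PCDH8 was the most abundant of all 36 genes, at 81.6 ± 26.7 (SD, n = 6), and that range, from 53.3 in male 1 to 121 in male 5, overlapped that of PCDH1.

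PCDH1 belongs to the delta-1 group, which carries an additional cytoplasmic motif. PCDH1 (chromosome 18, 28479371 to 28524596, minus strand) stood at 79.3, 90.5 and 55.9 TPM in the females and at 52.4, 66.9 and 68.9 TPM in the males. Its start shares 1946 bp with DELE1 on the other strand, which stood at a mean of 36.0 TPM. PCDH10 and PCDH17 belong to the delta-2 group with PCDH8 and recruit the WAVE complex, which activates the actin nucleator Arp2/3. PCDH10 stood at 43.9, 57.9 and 37.5 TPM in the females and at 35.5, 45.6 and 47.8 TPM in the males. PCDH17 stood at 21.4, 24.1 and 14.8 TPM in the females and at 18.8, 21.0 and 19.8 TPM in the males. In PCDH1, PCDH10 and PCDH17 female 3 was highest, and female 4 or male 1 was lowest. PCDH20 stood at 16.1, 16.7 and 21.8 TPM in the females and at 12.9, 20.0 and 26.9 TPM in the males. The means of PCDH17, PCDH20 and PCDH11X lay within 1 SD of each other, at 20.0 ± 3.13, 19.1 ± 4.93 and 19.0 ± 4.59 TPM (SD, n = 6).

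The X chromosome carried 2 of the genes. PCDH11X, a delta-1 protocadherin, spans 826 kb (71399156 to 72225236, plus strand). PCDH11X stood at 16.3, 19.3 and 13.9 TPM in the females and at 18.8, 18.4 and 27.5 TPM in the males. Female 3 lay above males 1 and 4, so the sexes overlapped, although they were separated after median-ratio scaling and quantile normalization. PCDH19, the delta-2 gene whose variants cause an epilepsy in heterozygous females, lies at 78916853 to 78954829 on the minus strand. PCDH19 stood at 0.602, 3.27 and 0.554 TPM in the females and at 0.506, 1.83 and 3.75 TPM in the males. Females 1 and 4 and male 1 lay near 0.5 TPM, and female 3 and male 5 lay above 3 TPM, and the coefficient of variation was 83.1%.

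The start of PCDH19 shares 3470 bp with an unnamed locus on the plus strand (78951360 to 79155366). This unnamed locus stood at 34.9, 31.3 and 25.3 TPM in the females and at 70.1, 61.2 and 98.5 TPM in the males. All males lay above all females, with a difference of −1.28 (SE 0.226) in log2(TPM + 1) and an adjusted p of 0.592 by limma. The part of this locus in the values of PCDH19 was not tested. The remaining non-clustered genes were low: PCDH18 stood at 3.05 ± 0.719 TPM, PCDH15, a component of the tip links of inner ear hair cells, at 2.06 ± 0.367 TPM, and PCDH12, a protocadherin of endothelium, at 0.629 ± 0.482 TPM (SD, n = 6).

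**Figure D3:**
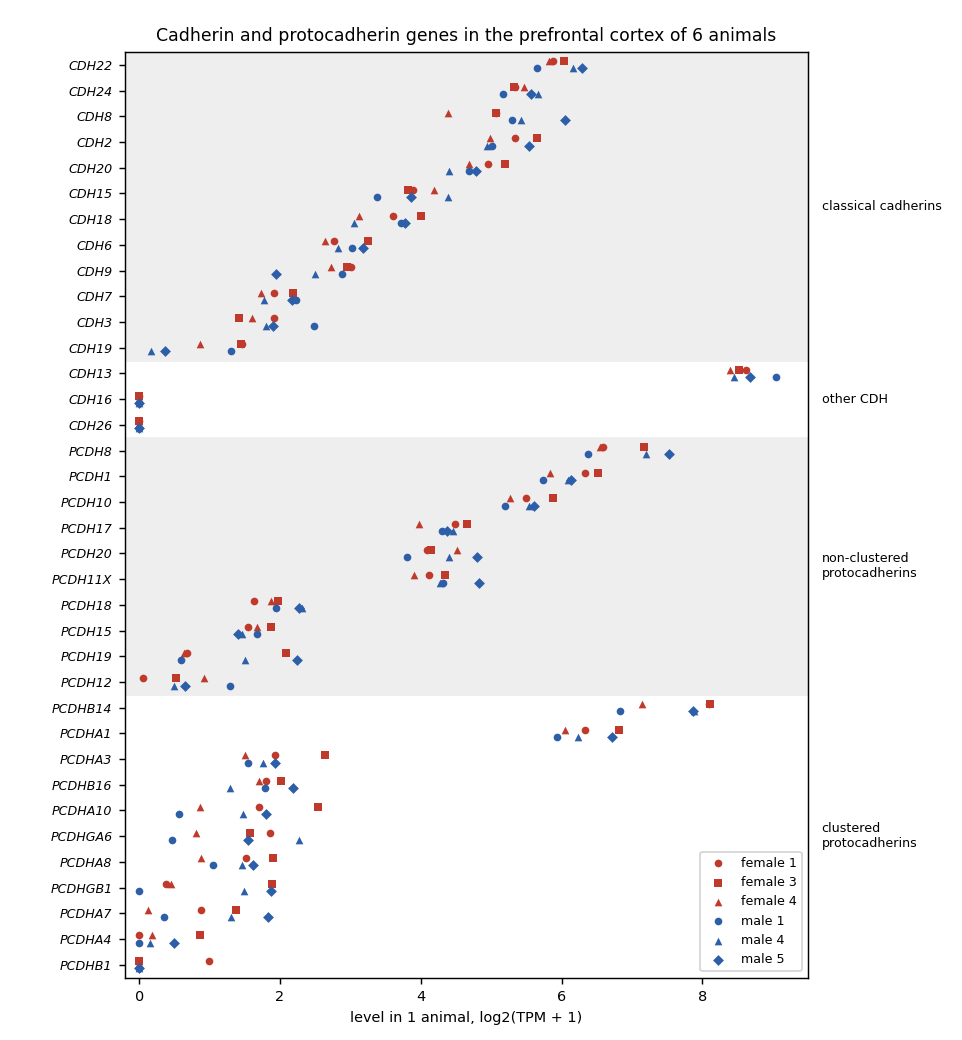
Level of each of the 36 genes in each animal, as log2(TPM + 1) on the horizontal axis, with 1 symbol per animal (females red, males blue), grouped by class and ordered by mean. CDH13 lies at the right in all animals, CDH16 and CDH26 lie at 0, and the clustered genes other than PCDHB14 and PCDHA1 lie at the left with wide spreads.

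The 11 clustered protocadherin loci lay within 817 kb of chromosome 18 (27293740 to 28110484), ordered alpha, beta and gamma as in other mammals, with PCDHB14 spanning the beta and gamma stretches. By TPM, nearly all of their level was assigned to 2 loci. PCDHB14 held 68.7% and PCDHA1 26.8% of the clustered TPM, and the other 9 loci together summed to between 6.59 TPM in male 1 and 22.9 TPM in female 3. By coverage this concentration was not seen: PCDHB14 held 25.9% and PCDHA1 11.5% of the clustered sum, and PCDHA3 and PCDHB16, at 2.84 and 2.54 on the TPM scale, lay above PCDHA1, at 2.37. The PCDHB14 locus (27649677 to 28110484, plus strand) is 461 kb long and encloses PCDHB16, PCDHGB1 and PCDHGA6. The PCDHA1 locus (27299646 to 27556250, plus strand) is 257 kb long and encloses PCDHA3, PCDHA7, PCDHA8 and PCDHA10. Both spans thus cover loci with names of other isoforms, and the TPM given to a name is that of an assembled locus, not of a single isoform.

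**Figure D4:**
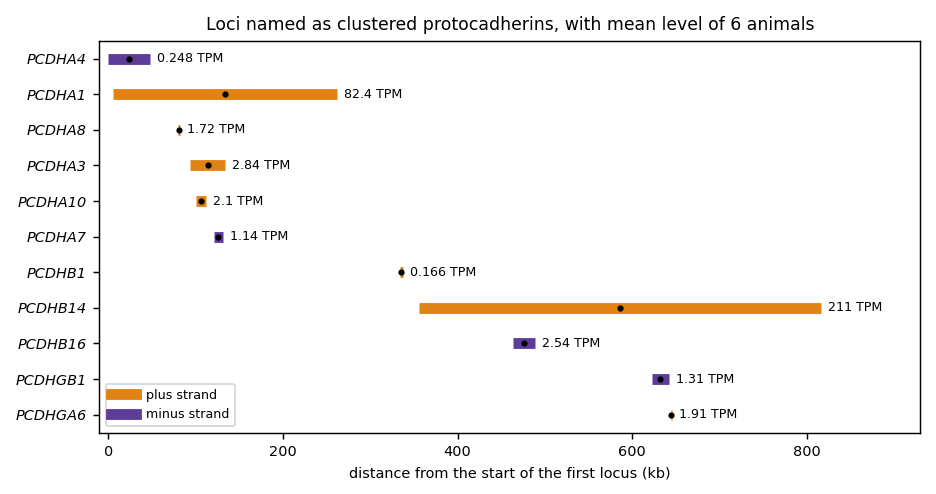
Extent of the 11 loci named as clustered protocadherins, as distance in kb from the start of the first of them (horizontal axis), coloured by strand, with the midpoint as a dot and the mean TPM of 6 animals beside each bar. The long bars of PCDHA1 at 82.4 TPM and PCDHB14 at 211 TPM cover most of the shorter loci, which stand at 2.84 TPM or less.

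PCDHB14 stood at 273, 275 and 141 TPM in the females and at 112, 235 and 233 TPM in the males. Female 4 and male 1 formed a lower pair, well apart from the other 4 animals. PCDHA1 stood at 79.4, 112 and 65.0 TPM in the females and at 60.2, 74.2 and 104 TPM in the males. The same animals were lowest for PCDHA1, but the gap was smaller, and the ratio of PCDHB14 to PCDHA1 ranged from 1.87 in male 1 to 3.44 in female 1. On the other strand, the span of PCDHB14 holds an unnamed locus of 38.0 TPM and shares 3512 bp with DIAPH1, at 62.7 TPM. The unnamed locus was also lowest in male 1, at 21.1 TPM, and DIAPH1 was lowest in female 1, at 41.0 TPM.

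The remaining clustered genes were low and variable. PCDHA3 stood at 2.80, 5.25 and 1.85 TPM in the females and at 1.92, 2.40 and 2.81 TPM in the males. PCDHA10 stood at 2.24, 4.82 and 0.812 TPM in the females and at 0.480, 1.79 and 2.48 TPM in the males. For both genes female 3 was far above the others. PCDHA7 stood at 0.846, 1.59 and 0.0887 TPM in the females and at 0.282, 1.46 and 2.55 TPM in the males. PCDHB16 stood at 2.50, 3.04 and 2.25 TPM in the females and at 2.45, 1.45 and 3.55 TPM in the males. PCDHGB1 stood at 0.306, 2.69 and 0.375 TPM in the females and was listed at 0, 1.80 and 2.67 TPM in the males. Male 1 and female 4 were again low for PCDHA7 and PCDHA10, and PCDHGB1 was above 1 TPM only in female 3, male 4 and male 5. PCDHA8 and PCDHGA6 had means of 1.72 and 1.91 TPM, PCDHA4 had a mean of 0.248 TPM, and PCDHB1 was listed at 0.996 TPM in female 1 and at 0 in the others.

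For the minus-strand loci of the array, more TPM was assigned to the overlapping strand than to the locus itself. Loci opposite PCDHA4, PCDHA7, PCDHB16 and PCDHGB1 summed to means between 82.4 and 219 TPM, nearly all of it from PCDHA1 or PCDHB14. PCDHGA6 was overlapped on its own strand by PCDHB14, and PCDHA3, PCDHA8 and PCDHA10 on theirs by PCDHA1. The values of these loci are uncertain for that reason.

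Male 1 and female 4 were most often the lowest animals over the 32 genes that passed the filter without tied values. Male 1 was lowest in 13 genes (40.6%) and female 4 in 9 (28.1%), and female 3 was highest in 14 (43.8%) and male 5 in 8 (25%). Over the 22331 loci tested without ties, male 1 was lowest in 22.4% and female 4 in 26.3%, and female 3 was highest in 18.9% and male 5 in 25.1%. Among the 9 clustered genes counted, male 1 was lowest in 5 and female 3 highest in 6. Median-ratio scaling, with factors between 0.937 and 1.09, and quantile normalization kept male 1 lowest and female 4 next for the clustered sum, and the ratio of the highest to the lowest sum was then 2.02 and 2.09.

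The genes varied less between animals than the bulk of the loci, and they were also more abundant. Their median coefficient of variation was 27.3%, against 62.4% over all 30270 loci tested, at a median level of 6.80 TPM against 2.41 TPM. By class the median was 23.6% for the classical cadherins, 23.8% for the non-clustered protocadherins and 54.8% for the clustered ones, whose median level was 2.01 TPM. Among genes with a mean of at least 1 TPM it was highest in PCDHGB1 (94.3%), PCDH19 (83.1%) and PCDHA7 (80.7%).

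Females and males were compared by the female minus male difference in mean log2(TPM + 1), where negative values mean higher levels in males. This scale shrinks the differences of weak genes. The filter, at least 0.1 TPM in 3 or more animals, kept 33 of the 36 genes and left out CDH16, CDH26 and PCDHB1. No gene of the 33 was called at an adjusted p under 0.1 by limma with Benjamini-Hochberg adjustment over all 30270 loci, of which 8 (0.0264%) were called. The lowest adjusted p was 0.923. Only CDH8 had an unadjusted p under 0.05, a share of 3.03% against 5.08% of all loci tested. By direction, this was 1 gene higher in males against 2.63% of all loci, and 0 higher in females against 2.45%. The sexes were separated, with every animal of a sex above every animal of the other, in CDH8 alone (3.03%) against 9.91% of all loci. Of all loci, 5% were separated with males higher and 4.92% with females higher, the latter with none of the 33 genes.

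The difference was above 0 in 16 genes and below 0 in 17, so that 48.5% were higher in females against 46.9% of all loci, and the median difference was −0.0097 against −0.030. The sign of this median was not stable: with each animal left out in turn it ranged from −0.13 without female 3 to 0.15 without female 4, and it was 0.13 without male 5. In 31 of the 33 genes (93.9%) the difference lay within 0.5 of 0, against 69.1% of all loci, the exceptions being CDH8 and CDH19. The classical cadherins had 6 differences in each direction. The difference was above 0 in 3 and below 0 in 7 non-clustered protocadherins, and above 0 in 7 and below 0 in 3 clustered ones, all without passing the test.

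CDH8 differed by −0.75 (SE 0.276, 95% interval −1.38 to −0.12), with means of 28.3 ± 7.29 TPM in females and 48.5 ± 14.5 TPM in males (SD, n = 3 each) and an adjusted p of 0.923 by limma. The difference lay between −0.90 and −0.53 when each animal was left out in turn. Without female 4 it was −0.53 (unadjusted limma p of 0.0795) and without male 5 it was −0.53 (unadjusted limma p of 0.0987). Without males 1 and 5 a single male is left, and the value was −0.59. Without the mean-variance trend the unadjusted limma p was 0.0622. The first 2000 bp of the gene are also covered by an unnamed locus on the other strand, at a mean of 2.74 TPM, whose difference was −0.67 (SE 0.498), and its part in the CDH8 values was not tested.

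The next genes by p were CDH20, PCDH11X, CDH19, CDH9 and PCDH1, and the intervals of all 5 included 0. CDH20 differed by 0.32 (95% interval −0.17 to 0.82), and PCDH11X differed by −0.35 (95% interval −0.92 to 0.21). CDH19 differed by 0.64 (95% interval −0.44 to 1.73) and CDH9 by 0.45 (95% interval −0.44 to 1.35). PCDH1 differed by 0.24 (95% interval −0.26 to 0.75). For CDH13 the difference was −0.22 (95% interval −0.70 to 0.27) and for PCDHB14 it was 0.26 (95% interval −0.56 to 1.08). Leaving out 1 animal moved these differences by more than 1.5 times. With each animal left out in turn, they ranged from 0.20 to 0.45 for CDH20, from −0.47 to −0.18 for PCDH11X and from 0.42 to 0.99 for CDH19. They ranged from 0.20 to 0.68 for CDH9, from 0.095 to 0.44 for PCDH1 and from −0.36 to −0.057 for CDH13. PCDHB14 changed sign, from −0.093 without male 1 to 0.58. With a pseudocount of 0.1 the difference of CDH19 was 1.5. Intervals of this width do not show that the sexes were alike.

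**Figure D5:**
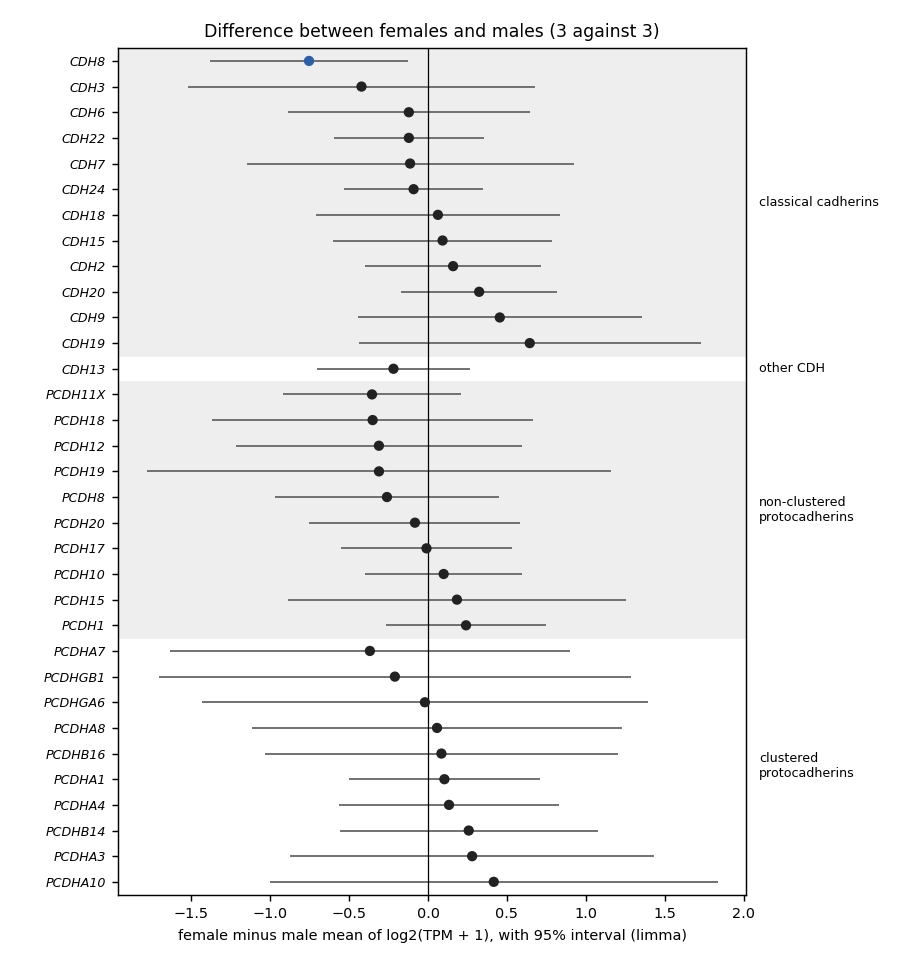
Female minus male difference in mean log2(TPM + 1) of the 33 genes tested (horizontal axis), with 95% intervals from limma and 3 animals per sex, grouped by class. The point of CDH8, drawn in blue because its sexes did not overlap, lies at −0.75 with an interval to the left of 0, and the intervals of the other 32 genes include 0.

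The partners of cadherins were expressed too, and 31 of 45 listed genes were found and tested. None was called, 1 (3.23%) had an unadjusted p under 0.05 against 5.08% of all loci, and 2 (6.45%) separated the sexes against 9.91%, and their median difference was 0.048 against −0.030 over all loci. Of the catenins, which join classical cadherins to actin, 7 were tested, led by CTNNB1 at 144 ± 26.6 TPM and CTNNA2 at 119 ± 18.9 TPM (SD, n = 6). Of the other cadherin superfamily genes 7 were tested. The calsyntenins CLSTN1 at 921 ± 115 TPM and CLSTN3 at 662 ± 83.1 TPM (SD, n = 6) had a higher mean TPM than each of the 36 genes. In male 1, CDH13 at 529 TPM lay above CLSTN3 at 513 TPM. FAT1, FAT2 and FAT4, giant cadherins of tissue polarity, had means of 1.47 TPM or less.

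The 6 genes tested that link protocadherins to actin and to focal adhesion kinases were led by PTK2B at 288 ± 69.4 TPM and WASF1, a WAVE subunit, at 276 ± 58.8 TPM (SD, n = 6). The protease ADAM10, which sheds the extracellular part of cadherins, stood at 15.8 ± 7.13 TPM (SD, n = 6). It was lowest in male 1 at 5.87 TPM and in female 4 at 8.38 TPM.

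Of the genes that act on promoter choice in the clustered array, 9 were tested, led by the cohesin subunit RAD21 at 179 ± 39.3 TPM and the insulator protein CTCF at 37.8 ± 7.71 TPM (SD, n = 6). SMCHD1, a silencing factor of the clustered protocadherins and of the inactive X chromosome, stood at 7.50, 12.2 and 13.2 TPM in the females and at 5.0, 5.58 and 6.5 TPM in the males. All females lay above all males, with a difference of 0.81 (SE 0.328) and an adjusted p of 0.923 by limma. CTCF and RAD21 overlapped between the sexes.

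The cell type markers listed for cortex included 39 genes found in the tables, and none of them was at 0 in all animals. Summed markers of excitatory neurons ranged from 2572 to 3636 TPM in the females against 2294 to 4104 TPM in the males, and those of inhibitory neurons from 370 to 828 and from 376 to 530 TPM. Astrocyte, microglia, endothelium, choroid plexus and striatal sums also overlapped between the sexes. Single markers in lists with overlapping sums did separate them. CLDN5 and FLT1 of endothelium and AQP1 of choroid plexus were higher in every female, and NEUROD6 of excitatory neurons was higher in every male. CLDN5 stood at 45.2, 33.5 and 60.7 TPM in the females against 23.4, 28.9 and 23.2 TPM in the males. Oligodendrocyte sums did not overlap, at 348 to 482 TPM in the females and 80.7 to 236 TPM in the males, nor did those of their precursors (118 to 154 and 66.5 to 101 TPM), of meninges and fibroblasts (17.0 to 23.5 and 36.5 to 57.8 TPM) and of blood (1275 to 2542 and 62.7 to 101 TPM). The precursor sum came mostly from OLIG1, and PDGFRA overlapped between the sexes, as did LUM and COL1A2 of the meninges list, whereas DCN and COL1A1 did not. HBQ1 and HBG, which encode globins, were the only markers called, both higher in females. An unadjusted limma p under 0.05 was found for 11 of the 39 markers (28.2%) against 5.08% of all loci, and 28.2% separated the sexes against 9.91%. The lists were chosen with earlier results of these data known, and 3 of the 11 were blood markers. Markers of the same cell type may vary together, so these shares are descriptive only. The part of these marker differences in the values of the cadherin and protocadherin genes was not tested.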

How the data were processed

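The authors enriched polyadenylated RNA of 6 PFC samples, mapped the reads to the genome build TS_3.0 with HISAT2 2.2.1, and assembled, merged and measured transcripts with StringTie 2.2.1 (versions from the submitters' processing notes). TPM, as deposited, is scaled to the library total. FPKM, as deposited, is proportional to it in each animal. Coverage, as deposited, is the mean depth of a locus and is not scaled for library size. No deposited file holds read counts, so the count test of the study was not run.

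Rows of the same gene ID and chromosome were summed, although each of the 36 genes had a single row. Coverage was put on the TPM scale by the median ratio of FPKM to coverage of strandless loci in each library (0.177 to 0.198), a choice made after the data were seen. log2(TPM + 1) was tested over 30270 loci in R 4.3.3 by limma 3.58.1, using a mean-variance trend, no covariate and Benjamini-Hochberg adjustment over all of them at a threshold of 0.1. The script was tested on simulated data. Tables were read with Python 3.11.15, numpy 2.4.6 and pandas 2.3.3 and drawn with matplotlib 3.10.9.

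Each sample is a separate animal, and P-values measure the spread between these 6 animals. The genes and lists were chosen with earlier results of these data known. Values of each animal were given for the 5 genes of each class with the highest TPM, the 6 with the smallest P, the X-linked genes and the 3 with the largest coefficient of variation at a mean of at least 1 TPM. Other genes were named after their values were seen. Alternatives were pseudocounts, filters, scalings, FPKM, coverage, rows kept apart, strand, trend, adjustment, a replicate block and animals left out. A result for 1 listed partner gene is not reported here.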

Additional observations from a re-analysis of the deposited data

How the results depend on the processing

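No gene was called by sex under any alternative, and among 418 alternative values of 22 genes, the tested ones among those given for each animal by rule, the lowest adjusted p by limma was 0.540. The sign was kept in 392 of these values, and the other 11 genes tested were followed only in the counts. The number of genes at an unadjusted p under 0.05 was 0 without the mean-variance trend and 0 to 2 when each animal was left out. It was 0 without males 1 and 5, which leaves 1 male and says nothing of stability. The number with separated sexes was 4 with median-ratio scaling (12.1%, against 9.95% of all loci), 5 with quantile normalization (15.2% against 9.86%), 3 with FPKM (9.38% against 10.9%), 2 with coverage (6.25% against 9.84%), 2 to 8 when each animal was left out (6.06% to 24.2%, against 15.3% to 24.8%) and 14 without males 1 and 5 (42.4% against 43.9%, with a single male left). CDH8 was separated with both scalings, FPKM, coverage and stranded rows only, the settings that could reorder the animals. Among the others were CDH20, higher in females, with both scalings and FPKM, PCDH11X, higher in males, with both scalings, and PCDH18, higher in males, with median-ratio scaling and FPKM. Without male 1, PCDH8 also had an unadjusted p under 0.05. Leaving out animals by their strandless share, and coverage, were chosen after the data were seen. By coverage, mean class sums were 97.7 for classical cadherins, 43.3 for other CDH genes, 208 for non-clustered and 20.6 for clustered protocadherins.

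The sign reversed for CDH13 (0.057) and PCDHB14 (−0.099) without males 1 and 5, for PCDH10 (−0.032) and PCDHA1 (−0.0015) with coverage, for PCDH17 (0.024) with FPKM and for PCDHGB1 (0.011) with a pseudocount of 0.1. With each animal left out, differences ranged from −0.0034 to 0.34 for CDH2, −0.32 to 0.0094 for CDH22, −0.24 to 0.0077 for CDH24, −0.068 to 0.24 for PCDH10, −0.15 to 0.19 for PCDH17, −0.79 to 0.090 for PCDH19, −0.35 to 0.15 for PCDH20, −0.11 to 0.31 for PCDHA1, −0.0049 to 0.84 for PCDHA10, −0.029 to 0.54 for PCDHA3, −0.093 to 0.58 for PCDHB14, −0.15 to 0.30 for PCDHB16 and −0.77 to 0.17 for PCDHGB1. The cause was not tested beyond the loss of animals.

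Numbers 1 and 4 occur in both sexes. Deviations of same-numbered animals correlated at −0.0048 and 0.038, within the range of the other pairs (−0.062 to 0.061). So few pairs cannot show whether these animals share more than a number. With this number as a replicate block, 0 genes had an unadjusted p under 0.05, and PCDH20 reversed to 0.20.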
